A study of Mus musculus with 168 samples.

Results

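NF-kappaB genes were followed in the brain of mice that breathed 8% oxygen and were then returned to room air. The set holds 10 genes in 2 classes. The factors and IkappaB-like regulators are Nfkb1, Nfkb2, Rela, Relb, Bcl3 and Nfkbiz, and the feedback inhibitors and early targets are Nfkbia, Tnfaip3, Ier3 and Zfp36. Members were taken by name, with every probe set annotated to the gene alone. Of the 10 genes, 9 were measured by 17 of the 45037 probe sets tested, and Nfkb1 is not analysed here. Adult male C57BL/6 mice of 8 to 9 weeks, with no transgene, were sham-treated controls (C), were exposed to 8% oxygen for 1 hour (H1) or 3 hours (H3), or were exposed for 3 hours and then kept in room air for 1, 3, 6, 12 or 24 hours (R1, R3, R6, R12 and R24). Each of the 8 groups held 3 mice, and total RNA was taken from 7 regions of each brain: cerebellum, pons and medulla, midbrain, thalamus, striatum, hippocampus and cerebral cortex. Every region and time point has 3 arrays. By the study's methods, sham mice breathed room air in the hypoxia chambers for 3 hours and spent a further 24 hours in the home cage, so hypoxia cannot be told apart here from recent handling or the hour of day. Values are signal intensities with no unit, analysed as log2(intensity + 16), and a gene with several probe sets is represented by the brightest.

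NF-kappaB factors are dimers of Rel proteins. In resting cells IkappaB proteins, of which the Nfkbia product IkappaBalpha is the best known, hold them in the cytoplasm, and inflammatory signals release them through the IKK kinases. Active NF-kappaB then induces several of its own brakes, Nfkbia and Tnfaip3 among them, which end the response. In brain, NF-kappaB is studied for its part in glial inflammation and in neuronal survival.

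The upstream sequences of the genes on which the results turn are shown first, together with Nfkb2 and Tnfaip3, which did not pass the test against controls but hold matches to the same motif. RefSeq (GRCm38.p6) gave such a sequence for 7 of the 10 genes, not for Nfkbiz, Nfkb1 or Relb. Each sequence is the 250 bases before the annotated start of transcription, read 5′ to 3′ on the strand of the gene. Capitals mark matches on either strand to the kappaB consensus, the DNA motif of NF-kappaB, and in Zfp36 the match to the CArG box, the motif of serum response factor. Nfkbia lies at chr12:55492648-55492897 on the minus strand, Ier3 at chr17:35821463-35821712 on the plus strand, Zfp36 at chr7:28379229-28379478 on the minus strand, the first of 3 Nfkb2 starts at chr19:46304487-46304736 on the plus strand, and the second of 2 Tnfaip3 starts at chr10:19015411-19015660 on the minus strand.
Nfkbia: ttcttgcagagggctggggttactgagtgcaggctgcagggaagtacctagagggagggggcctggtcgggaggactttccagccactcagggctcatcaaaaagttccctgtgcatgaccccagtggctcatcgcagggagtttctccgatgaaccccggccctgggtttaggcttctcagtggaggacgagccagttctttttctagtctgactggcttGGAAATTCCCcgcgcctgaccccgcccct
Ier3: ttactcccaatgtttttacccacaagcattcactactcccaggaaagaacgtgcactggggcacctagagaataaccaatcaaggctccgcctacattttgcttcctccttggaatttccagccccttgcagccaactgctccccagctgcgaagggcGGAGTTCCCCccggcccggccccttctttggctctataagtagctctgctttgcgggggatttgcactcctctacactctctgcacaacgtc
Zfp36: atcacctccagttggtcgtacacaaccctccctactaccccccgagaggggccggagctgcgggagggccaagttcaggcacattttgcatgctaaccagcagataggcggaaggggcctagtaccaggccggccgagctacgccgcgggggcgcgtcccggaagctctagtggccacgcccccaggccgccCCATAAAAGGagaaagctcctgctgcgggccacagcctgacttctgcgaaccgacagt
Nfkb2: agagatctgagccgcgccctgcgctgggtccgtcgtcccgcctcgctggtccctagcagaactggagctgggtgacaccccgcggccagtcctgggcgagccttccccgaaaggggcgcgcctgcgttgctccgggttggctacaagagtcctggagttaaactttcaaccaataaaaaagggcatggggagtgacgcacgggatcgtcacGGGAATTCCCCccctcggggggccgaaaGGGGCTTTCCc
Tnfaip3: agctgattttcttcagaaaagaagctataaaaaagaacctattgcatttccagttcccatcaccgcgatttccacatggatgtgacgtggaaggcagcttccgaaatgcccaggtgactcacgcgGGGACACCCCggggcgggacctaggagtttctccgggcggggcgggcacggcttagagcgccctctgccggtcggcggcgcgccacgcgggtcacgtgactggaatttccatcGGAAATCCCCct
In Nfkbia the kappaB match lay 29 to 20 bases before the start, and in Ier3 it lay 92 to 83 bases before it. Nfkb2 held 3 matches before its first start, of which a pair overlap, and 1 before each of the other starts. Tnfaip3 held 2 before its second start and none before its first. Zfp36, Rela and Bcl3 held no match in this window. A kappaB match was found in 3.9% of all 32851 upstream sequences of the same length, and a CArG box in 1.47%. ACGTG, the core of the hypoxia response element, was found on either strand in the windows of Ier3 and of both Tnfaip3 starts, against 16.6% of all windows. GCGTG, the other form of that core, was found before Zfp36, both Tnfaip3 starts and 2 of the Nfkb2 starts, against 28.2%. These are matches of letters, not measured binding sites.

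Nfkbia, Ier3 and Zfp36 rose during hypoxia across the brain, and no other measured member passed the test against controls at any time point. For this the log2 values of the 7 regions were averaged for each time point and replicate number, which gave 24 averages, and these were compared by limma with Benjamini-Hochberg adjustment over all probe sets. At H1, 2 of the 9 genes were higher, Ier3 and Zfp36, against 0.0977% of all probe sets. At H3, 3 of 9 were higher, against 1.2%, and at R1 Nfkbia alone was higher, against 1.65%. No member was called lower at these times, where 0.06%, 2.16% and 3.83% of all probe sets were. From R3 to R24 limma called no member and 0.782%, 0.0422%, 0% and 0% of all probe sets. At R3, R6, R12 and R24, 2, 1, 0 and 1 of the 9 genes had an unadjusted p under 0.05. Of all 45037 probe sets, 5138, 3335, 4152 and 2554 had such a p. The median log2 change of the 9 genes was 0.10 at H1, 0.05 at H3 and 0.07 at R1, beside 0.01, -0.01 and -0.02 over all probe sets. Tissue was bulk, so more RNA per cell and more cells of an expressing type cannot be told apart.

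**Figure D1:**
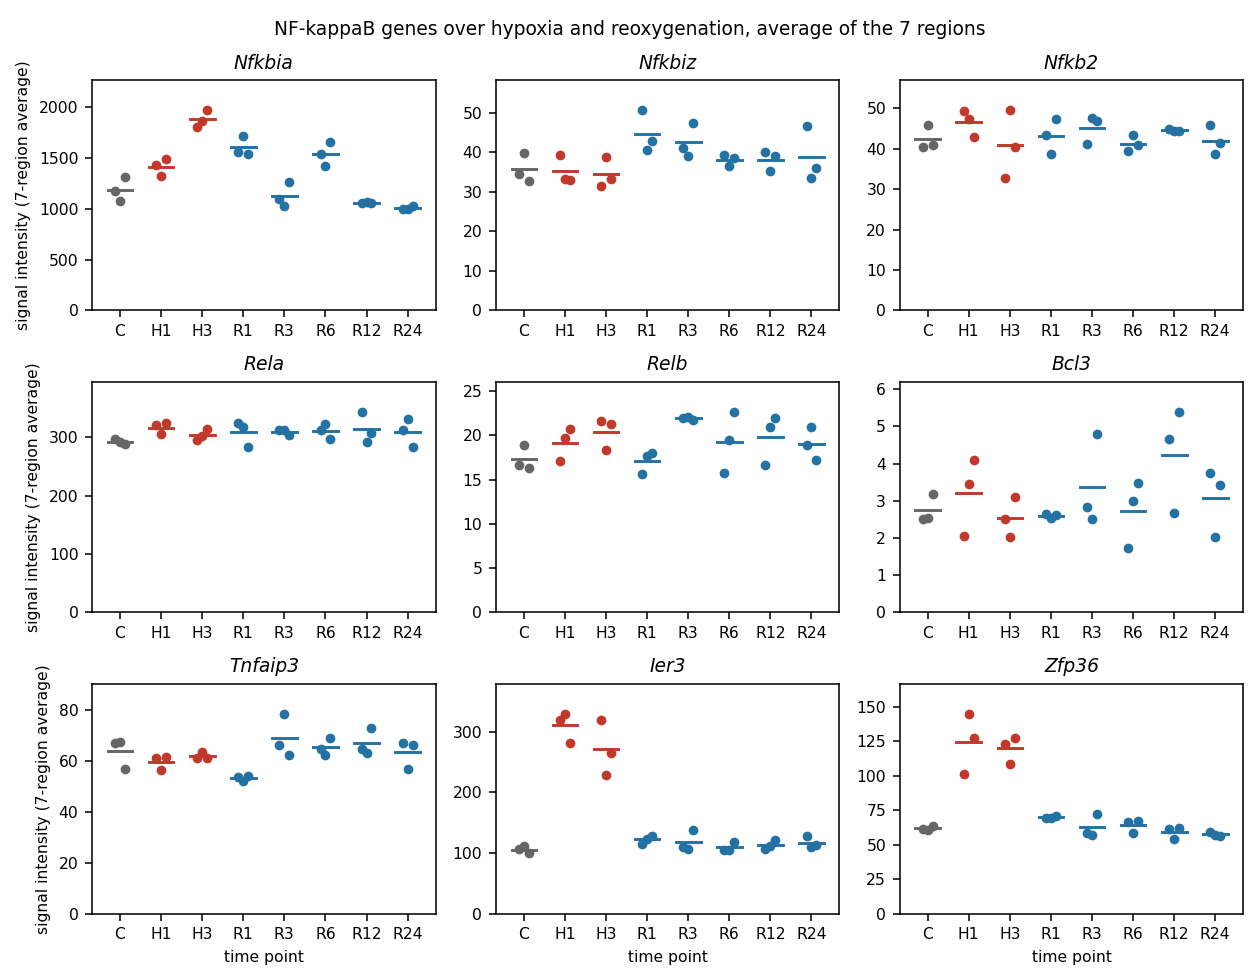
Signal intensity of the 9 measured genes against time point. Each point is the antilog of the mean log2 value of the 7 regions for 1 replicate number (grey, controls; red, hypoxia; blue, reoxygenation) and each bar is the mean of 3 points. Ier3 and Zfp36 were high at H1 and H3 only, Nfkbia peaked at H3 and was again above all 3 controls at R6, and the axes of the other genes show small changes.

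Ier3 encodes an early response protein, also called IEX-1, that is induced by NF-kappaB and other stress pathways and affects cell survival. Its averages were 106, 112 and 99.6 in controls, 319, 330 and 282 at H1, and 320, 229 and 265 at H3. At R1 they were 116, 123 and 129. All hypoxia values lay far above all control values, and the R1 values lay close to them. The log2 change was 1.42 ± 0.10 (SE, n = 3) at H1, a 2.68-fold difference, with adjusted p = 1.45e-07 by limma. It was 1.23 ± 0.10 at H3 with adjusted p = 3.00e-07 by limma. H3 minus H1 was -0.19 (95% interval -0.40 to 0.01). From H3 to R1, Ier3 fell by 1.04 on the log2 scale (SE 0.10, limma adjusted p = 8.45e-06). At R1 the change from controls was 0.18 (95% interval -0.02 to 0.39).

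Zfp36 encodes tristetraprolin, a protein that binds AU-rich elements of cytokine mRNAs and speeds their decay. Its averages were 61.7, 60.5 and 63.8 in controls. At H1 they were 101, 145 and 127, and at H3 they were 123, 109 and 128. At R1 they were 69.7, 69.3 and 71.0. Hypoxia and control values did not overlap, and replicate 1 was the lowest at H1. The log2 change was 0.84 ± 0.09 (SE, n = 3) at H1 (limma adjusted p = 5.38e-05) and 0.80 ± 0.09 at H3 (adjusted p = 1.73e-05). H3 minus H1 was -0.04 (95% interval -0.22 to 0.15). From H3 to R1, Zfp36 fell by 0.66 on the log2 scale (SE 0.09, limma adjusted p = 0.000336). Falls from H3 to R1 were called for 2 of the 9 genes, Ier3 and Zfp36, against 1.09% of probe sets.

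Nfkbia followed another course. Its averages were 1171, 1076 and 1306 in controls, 1423, 1318 and 1483 at H1, 1801, 1863 and 1964 at H3, and 1552, 1716 and 1540 at R1. They were then 1094, 1025 and 1263 at R3 and 1536, 1418 and 1653 at R6. At R12 they were 1059, 1063 and 1054, and at R24 they were 997, 996 and 1022. The H1, H3, R1 and R6 values lay above all controls, the R3 values overlapped them, and the R12 and R24 values lay below all controls. The log2 change was 0.66 ± 0.07 (SE, n = 3) at H3, a 1.58-fold difference (limma adjusted p = 2.29e-05), and 0.43 ± 0.07 at R1 (adjusted p = 0.00121). At H1 it was 0.25 (95% interval 0.09 to 0.41), with limma adjusted p = 0.297. With all arrays in the fit and a random block the limma adjusted p was 6.35e-06. That fit counted the arrays of a replicate number almost as separate replicates, so its added calls here and below carry less weight.

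Between successive time points, Nfkbia was 0.41 ± 0.07 higher on the log2 scale at H3 than at H1 (limma adjusted p = 0.00826). It was the 1 gene of 9 with such a rise, against 0.235% of probe sets. The call was lost without H1 replicate 2 or without H3 replicate 3, where the highest adjusted p was 0.067. It was also lost when any replicate number was left out at all time points, with limma adjusted p up to 0.215. R1 minus H3 was -0.23 (95% interval -0.38 to -0.07, limma adjusted p = 0.161), and it passed after quantile normalization (adjusted p = 0.0462). From R1 to R3, Nfkbia fell by 0.51 on the log2 scale (SE 0.07, limma adjusted p = 0.000305), against 0.95% of probe sets that fell. The call of this fall was lost without replicate number 1 at all time points (limma adjusted p = 0.066). At R6 the change from controls was 0.37 (95% interval 0.21 to 0.53), positive in all 7 regions, with limma adjusted p = 0.103. It passed in 5 of the alternatives, and so whether R6 is called rests on the setting. The fit of all arrays with a random block gave a limma adjusted p of 1.02e-11, and the rest of these gave 0.0373 to 0.0405. At R24 the change was -0.23 (95% interval -0.39 to -0.07, limma adjusted p = 0.79). Of the alternatives, only the fit of all arrays with a random block called it (adjusted p = 0.00023).

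All 5 probe sets of Nfkbia gave a similar course over time. Mean intensities over all arrays were 1358 for 1420088_at, 481 for 1438157_s_at, 343 for 1449731_s_at, 352 for 1448306_at and 84.8 for 1420089_at. At H3 the log2 changes in the same order were 0.66, 1.14, 0.88, 1.23 and 0.44, all called, and at R1 they were 0.43, 0.73, 0.55, 0.79 and 0.23, all called. The brightest probe set thus gave a smaller change than 3 of the dimmer ones. At H1 the log2 change of 1420089_at was 0.29 (limma adjusted p = 0.0229), and those of the other probe sets did not pass. At R6 the changes were 0.37, 0.59, 0.49, 0.52 and 0.23, and none passed. Across the 49 combinations of region and time point, the changes of the other 4 probe sets correlated with those of the brightest at r = 0.84 to 0.96. These points share control arrays in each region and measure 1 transcript, so the values describe how alike the probe sets are.

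**Figure D2:**
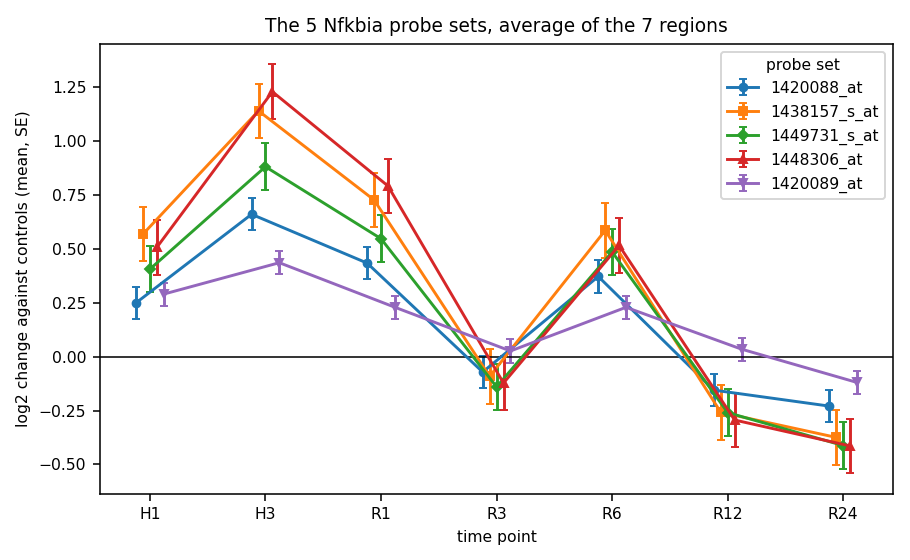
Log2 change of the 5 Nfkbia probe sets against controls (mean and SE of the 7-region average, n = 3 per time point) against time point. All 5 were highest at H3, near 0 at R3 and higher again at R6.

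Tnfaip3 encodes A20, a ubiquitin-editing enzyme that shuts off signalling upstream of the IKK kinases. Its averages were 67.0, 67.5 and 56.8 in controls, 53.7, 52.1 and 54.1 at R1, and 66.4, 78.6 and 62.4 at R3. The R1 values lay below all controls, and those at R3 overlapped them. The log2 change at R1 was -0.20 (95% interval -0.34 to -0.06, limma adjusted p = 0.0988). It passed with all arrays and a random block (adjusted p = 0.012) and without control replicate 3 (adjusted p = 0.0316). From R1 to R3 Tnfaip3 rose by 0.29 ± 0.07 (SE) on the log2 scale (limma adjusted p = 0.0145), as did 3.38% of all probe sets. That call was lost without R1 replicate 2 (adjusted p = 0.0624). It was also lost without replicate number 1 or without number 2 at all time points, with limma adjusted p up to 0.266. The dimmer probe set, 1450829_at, showed a difference of 0.01. At H1 and H3 the changes were -0.08 (95% interval -0.22 to 0.07) and -0.03 (-0.17 to 0.11).

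Nfkbiz encodes IkappaBzeta, an inducible nuclear partner of NF-kappaB that switches on secondary response genes. Its averages were 34.5, 39.8 and 32.7 in controls and 50.7, 40.7 and 42.8 at R1, with no overlap. The log2 change at R1 was 0.23 (95% interval 0.06 to 0.41, limma adjusted p = 0.126), and with all arrays in the fit and a random block its adjusted p was 0.00249. The dimmer probe sets of Nfkbiz gave 0.07 and 0.00 at R1, so the representative probe set stood alone. At H1 and H3 the changes were -0.01 (-0.19 to 0.16) and -0.03 (-0.21 to 0.15).

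The Rel factors did not pass at any time point. Rela, the main transactivating subunit, had averages of 298, 292 and 288 in controls and 295, 302 and 314 at H3, a log2 change of 0.05 (95% interval -0.07 to 0.17). Nfkb2, which encodes the p100 precursor of p52, had averages of 40.5, 45.8 and 40.9 in controls and 32.6, 49.5 and 40.5 at H3, a change of -0.05 (-0.22 to 0.12). The brightest probe set of Nfkb2, 1429128_x_at, is of a type that can share probes with other genes. The dimmer one, 1425902_a_at, gave 0.26 at H3 (-0.03 to 0.54) and 0.27 at R3 (-0.02 to 0.55), neither called. Its values lay below 16 in 54.76% of the arrays. The changes of the 2 probe sets by region and time point correlated at r = -0.26, so they did not give the same course. Relb, the partner of p52, had averages of 16.6, 18.9 and 16.3 in controls and 21.6, 18.4 and 21.3 at H3, a change of 0.13 (-0.01 to 0.27). At R3 the Relb averages were 21.9, 22.0 and 21.8, all above the controls, with a change of 0.19 (0.05 to 0.33) and limma adjusted p = 0.245. Bcl3, an IkappaB-like co-regulator of p50 and p52 dimers, was below 16 in 100% of the arrays, and so no change of this gene could be measured at this signal. Of the Relb values, 31.55% lay below 16, which lessens any change on this scale.

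The rises were seen in every region, though not called in each. Of the 63 pairs of gene and region, limma called 10 higher at H1, 18 at H3 and 2 at R1, against 0.0276%, 0.157% and 0.158% of all probe set and region pairs. No pair was called lower, and no pair was called from R3 to R24, where 6, 7, 4 and 4 pairs had an unadjusted p under 0.05. The lower, the late and the unadjusted counts stand without a share over all pairs, and so are not read as a result about the members. When each array of controls, H1, H3 and R1 was left out in turn, 7 of the 10, 9 of the 18 and 0 of the 2 pairs kept the call throughout. Ier3 accounted for 14 calls, all 7 regions at both hypoxia times. Nfkbia accounted for 9, all 7 regions at H3 and thalamus and cerebellum at R1. Zfp36 accounted for 7.

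**Figure D3:**
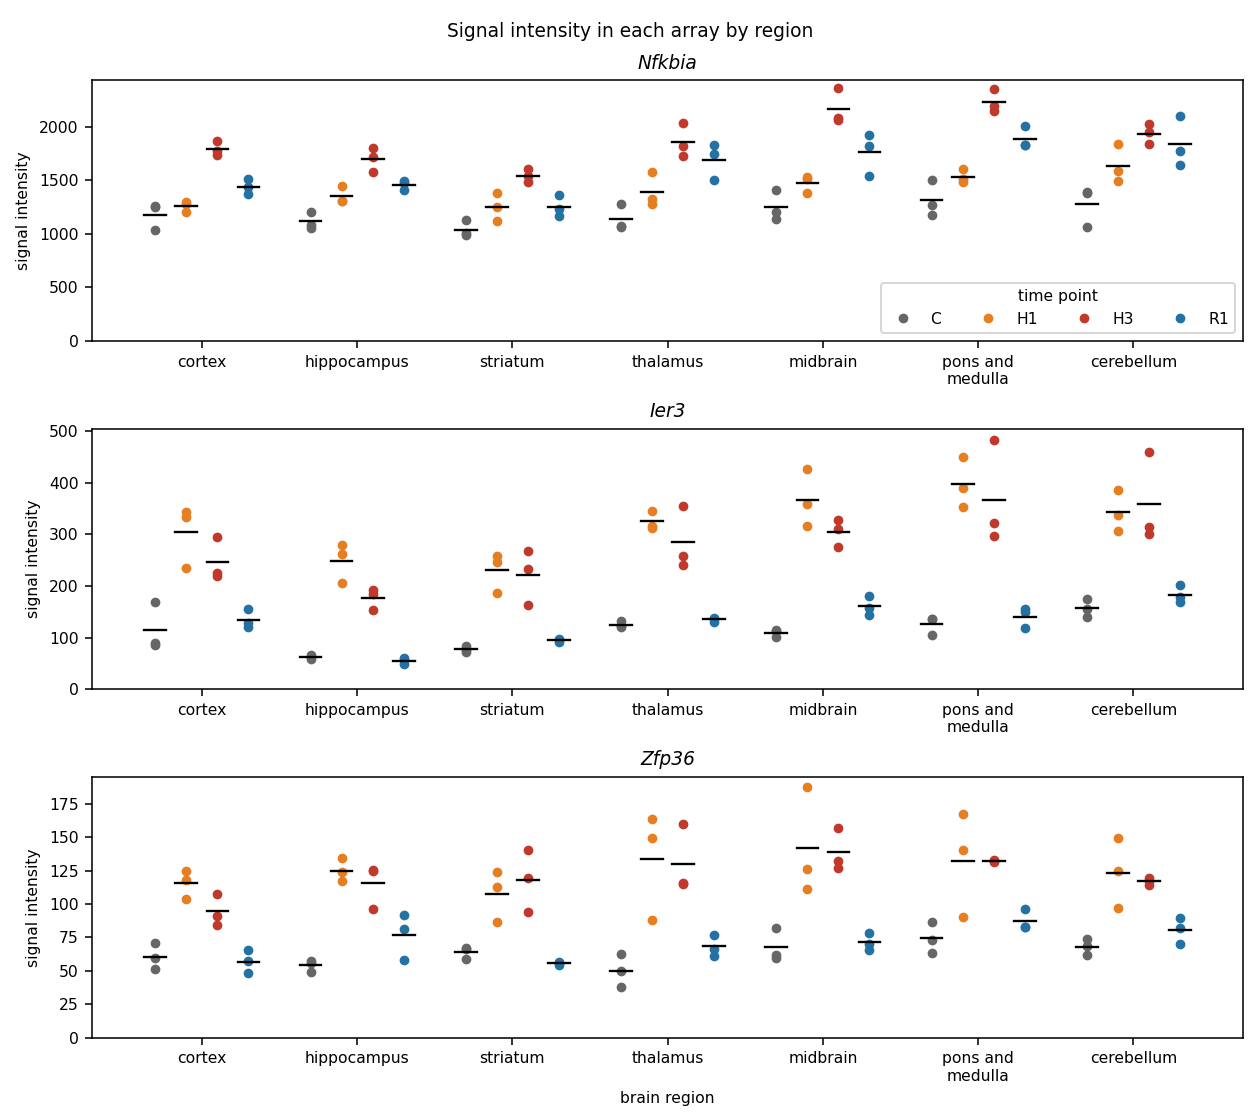
Signal intensity of Nfkbia, Ier3 and Zfp36 in each array of controls, H1, H3 and R1, by brain region; the short bars are means of 3 arrays. In each region the H3 points of all 3 genes lie above the control points, and those of Ier3 and Zfp36 are back near the controls at R1.

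For Ier3 the 3 arrays of every region lay above all 3 controls at H1 and at H3, where 4.98% and 5.46% of all probe set and region pairs did so. In hippocampus, where control values were 62.1, 65.6 and 58.1, Ier3 was 280, 262 and 205 at H1 and 191, 154 and 185 at H3. In cerebellum, where controls were 175, 156 and 140, it was 338, 385 and 306 at H1 and 459, 301 and 315 at H3. The log2 change at H1 ran from 1.05 in cerebellum to 1.76 in hippocampus, and at H3 from 1.05 in cortex to 1.41 in pons and medulla. In cortex control replicate 2 was 168.2, against 89.2 and 86.5 in the other controls, and the cortex calls were lost in 4 of 12 leave-out fits at H1 and in 5 of 12 at H3, where the highest adjusted p by limma were 0.237 and 0.188. Every loss came from leaving out 1 of the 3 controls or 1 of the 3 arrays of that time point. Without control replicate 2 the cortex calls were kept at both times, as was the H1 call without H1 replicate 3. Leave-out fits of the other time points removed no array of that contrast. In the other 6 regions Ier3 kept its call throughout at both times. The difference between regions in the change at H1 had an unadjusted p of 0.0451 and an adjusted p of 1.00 by limma.

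Nfkbia at H3 was highest in pons and medulla, with 2145, 2193 and 2353 against 1267, 1175 and 1500 in controls, and in midbrain, with 2065, 2080 and 2367 against 1207, 1139 and 1414. It was lowest in striatum, with 1486, 1609 and 1540 against 1005, 986 and 1127. At H3, R1 and R6 the 3 arrays of all 7 regions lay above all 3 controls, against 5.46%, 5.98% and 4.53% of all pairs. The log2 change at H3 ran from 0.57 in striatum to 0.79 in midbrain, and the calls of midbrain and of pons and medulla were kept throughout. At R1 the called changes were 0.56 ± 0.11 (SE, n = 3) in thalamus (limma adjusted p = 0.0336) and 0.52 ± 0.11 in cerebellum (adjusted p = 0.0237). Pons and medulla had 0.53 and midbrain 0.49 without a call, and the differences between regions at R1 did not pass (unadjusted p = 0.142, limma adjusted p = 0.889).

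Zfp36 was called at H1 in hippocampus, thalamus and midbrain, and at H3 in the same regions and cerebellum. Control values in hippocampus were 57.5, 56.05 and 48.97, and the values were 124, 135 and 117 at H1 and 126, 95.96 and 125 at H3. In thalamus controls were 38.2, 49.6 and 62.4, with 88.1, 164 and 150 at H1 and 115, 115 and 160 at H3. The log2 change at H1 was 1.01 in hippocampus, 1.16 in thalamus and 0.89 in midbrain, and it was 0.62 to 0.78 in the other 4 regions, where the 3 arrays also lay above all controls. Hippocampus kept its calls throughout, while those of thalamus, midbrain and cerebellum were lost in 3 or 4 of 12 leave-out fits. Every loss came from leaving out 1 of the 3 controls or 1 of the 3 arrays of that time point. Leave-out fits of the other time points removed no array of that contrast, and some of those that did remove one kept the call. The difference between regions did not pass at H1 (unadjusted p = 0.196) or at H3 (unadjusted p = 0.16), each with limma adjusted p = 1.00.

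**Figure D4:**
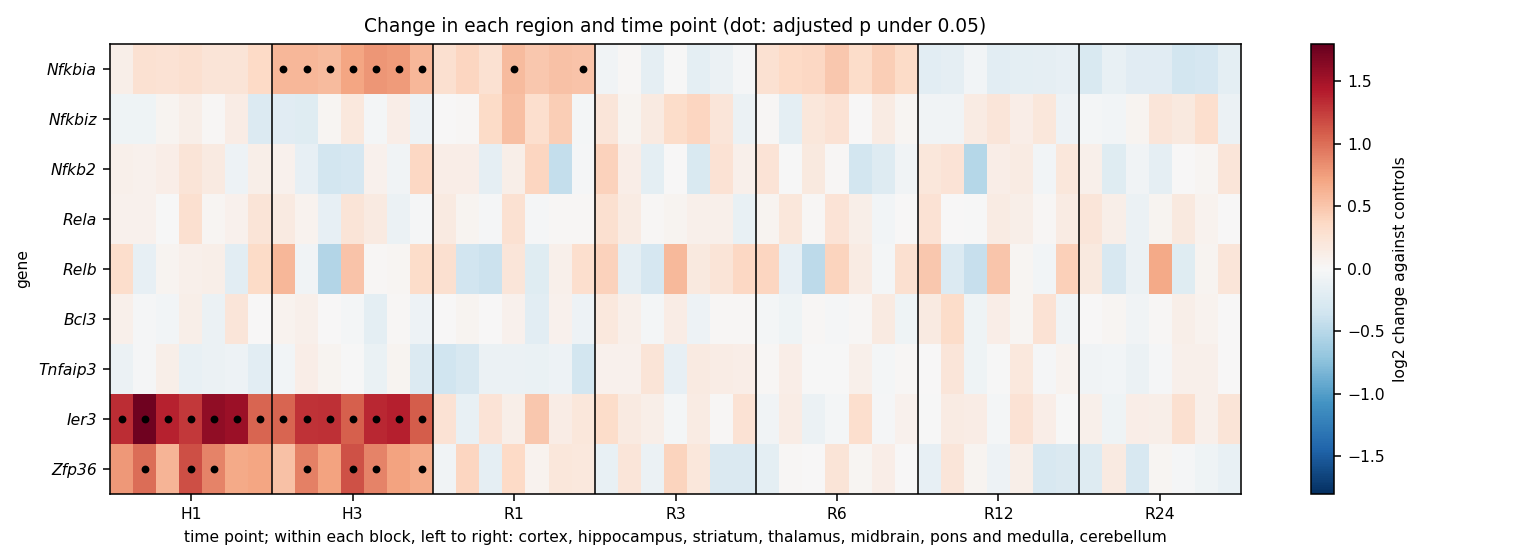
Log2 change against controls of the 9 measured genes in each of the 7 regions at each of the 7 later time points, on a colour scale from -1.8 (blue) to 1.8 (red); dots mark an adjusted p under 0.05. The 30 dots lie in the rows of Nfkbia, Ier3 and Zfp36, and none lies after R1.

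Across the 9 genes, no difference between regions in the change passed at H1, H3 or R1, where 0.00222%, 0.0222% and 0.135% of probe sets passed the F-test. The smallest unadjusted p was that of Nfkbiz at R1 (0.0112, limma adjusted p = 0.521). There the log2 change was 0.54 in thalamus, 0.44 in pons and medulla, 0.34 in striatum and 0.30 in midbrain, and it was 0.01 in cortex, 0.03 in hippocampus and -0.04 in cerebellum. Unadjusted p was also under 0.05 for Relb at H3 (0.0223, adjusted p = 0.968).

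Control levels passed the F-test between regions for 3 of the 9 genes, Nfkbiz, Relb and Ier3, against 41.4% of all probe sets. Nfkbiz was highest in cerebellum at 60.3 ± 5.21 (SD, n = 3) and hippocampus at 55.3 ± 5.13, and the test between them did not pass (limma adjusted p = 0.627). Cortex followed at 36.4 ± 6.96, below hippocampus (adjusted p = 0.0167). Pons and medulla had 29.8 ± 3.54, midbrain 28.9 ± 3.57, striatum 26.5 ± 4.96 and thalamus 23.9 ± 3.11, and from cortex down no test between neighbours in this order passed. These values are of 1417483_at, and the other probe sets did not pass the F-test (limma adjusted p = 0.151 and 0.0649). Of these, 1448728_a_at was highest in cortex at 31.2 and 1457404_at in cerebellum at 21.6.

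Relb was highest in hippocampus at 36.1 ± 6.57 (SD, n = 3). Pons and medulla, midbrain and striatum lay at 23.6, 22.2 and 21.9, cortex at 13.7, thalamus at 8.07 and cerebellum at 6.45. Hippocampus was above the mean of the other 6 regions (limma adjusted p = 0.00115), while thalamus (adjusted p = 0.0165) and cerebellum (adjusted p = 0.00126) were below it. No test between neighbours in this order passed. Values in cerebellum, thalamus and part of those in cortex were under 16.

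Ier3 in controls was highest in cerebellum at 157 ± 17.6 (SD, n = 3) and lowest in hippocampus at 61.9 ± 3.77 and striatum at 77.5 ± 5.38. Cerebellum was above the mean of the other regions (limma adjusted p = 0.00133), and hippocampus (adjusted p = 0.000297) and striatum (adjusted p = 0.016) were below it. Between them lay pons and medulla at 126, thalamus at 125, cortex at 115 and midbrain at 110. No test between neighbours in this order passed. For Nfkbia the test of the brightest probe set between regions did not pass (limma adjusted p = 0.244), while those of 1449731_s_at and 1448306_at did (adjusted p = 0.0154 and 0.0358), and both were lowest in striatum. Rela in cortex, at 241 ± 9.84, was below the mean of the other regions (limma adjusted p = 0.048), while its F-test over the regions did not pass (adjusted p = 0.0902).

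**Figure D5:**
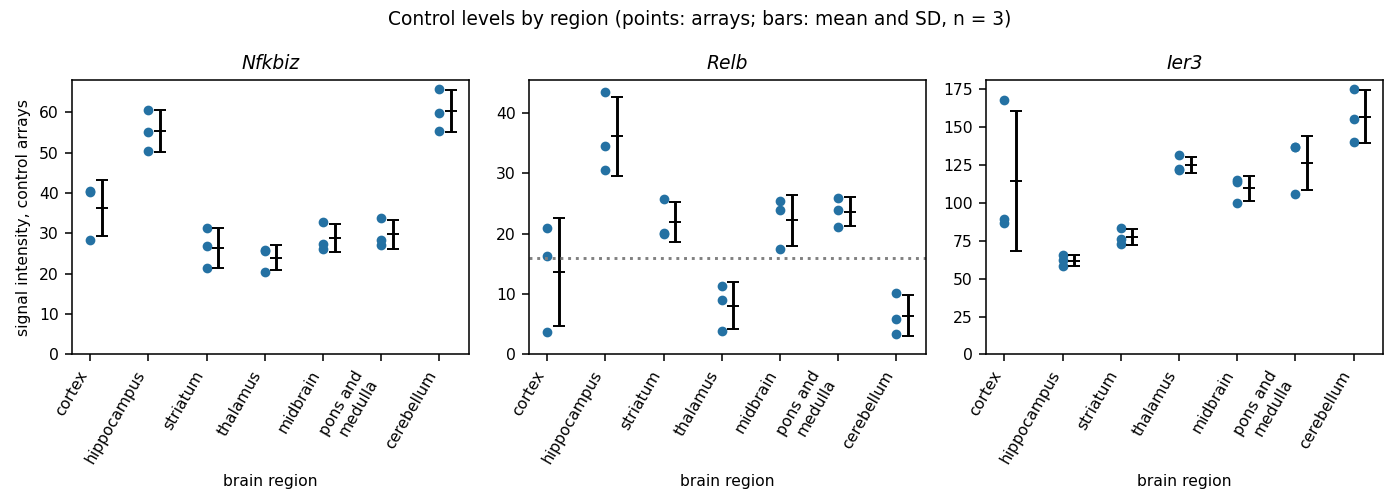
Control signal intensity of Nfkbiz, Relb and Ier3 by brain region; points are arrays, and bars are mean and SD (n = 3). Nfkbiz is high in cerebellum and hippocampus, Relb in hippocampus, and Ier3 in cerebellum; the dotted line for Relb marks 16.

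In 7 other lists 81 genes were measured. The last list held relatives of tristetraprolin and of the early response genes, and the rest held genes of NF-kappaB signalling or its targets. In the average of the 7 regions 3 of the 81 rose at H1, 3 rose and 1 fell at H3, and 3 rose and 2 fell at R1. Over all probe sets 0.0977%, 1.2% and 1.65% were higher and 0.06%, 2.16% and 3.83% were lower at these times. All 3 rises at H1 were of the last list, Ier2, Dusp1 and Btg2, as were 2 of the rises at H3 and 1 at R1. At R3 1 of the 81 rose, Icam1, where 0.782% of all probe sets were called in either direction. The median log2 change of the 81 genes was -0.01, -0.02 and -0.02 at H1, H3 and R1, close to that of all probe sets. An unadjusted p under 0.05 by limma was found for 3365, 6147 and 8346 of all 45037 probe sets at H1, H3 and R1. Among the other Rel and IkappaB genes limma called 0 of 7 at these times, and 0 had such a p. The largest change among them was that of Nfkbie, which encodes IkappaBepsilon, at -0.14 at R1 (limma adjusted p = 0.607). At H1, H3 and R1 an unadjusted p under 0.05 was found for 1, 4 and 4 of the 10 IKK complex and upstream kinase genes. Of the 14 receptor and adaptor genes 1, 3 and 3 had it, and of the 12 other feedback inhibitors 0, 3 and 4. The 9 survival targets gave 0, 2 and 4, and the 8 genes of the last list gave 6, 5 and 5. Among the 10 IKK complex and upstream kinase genes, Tab2, an adaptor of the TAK1 kinase, fell by 0.24 at H3 (SE 0.05, limma adjusted p = 0.00656) and by 0.21 at R1 (adjusted p = 0.0137) on the log2 scale. Map3k14, the NIK kinase of the alternative pathway, was 0.13 at H1 (adjusted p = 0.376).

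Among the 14 receptor and adaptor genes, Irak2, a kinase of interleukin-1 and Toll-like receptor signalling, rose at H3 by 0.25 ± 0.06 (SE, limma adjusted p = 0.0236), and Traf2 was -0.20 at R1 without passing. Among the 12 other feedback inhibitors, Itch, a ubiquitin ligase that works with A20, fell by 0.21 at R1 (SE 0.04, limma adjusted p = 0.00293), and Otud7b was -0.19 without passing. Of the 21 inflammatory targets, cytokines, chemokines and adhesion molecules, limma called 0 at H1, H3 and R1, and 0, 1 and 2 had an unadjusted p under 0.05. Of all 45037 probe sets, 3365, 6147 and 8346 had such a p at these times. At R3 limma called 1 of the 21, Icam1, an adhesion molecule of endothelium, against 0.782% of all probe sets. Its log2 change was 0.55 ± 0.10 (SE, limma adjusted p = 0.0119) at a mean intensity of 18.2. The mean intensity of 8 of the 21 was below 16, where a change can hardly be measured. The median log2 change of the 21 was -0.03, -0.08 and -0.03 at H1, H3 and R1, and the largest change at these times was that of Cxcl10, an interferon-inducible chemokine, at -0.30 at R1 (adjusted p = 0.173). Of the 9 survival targets, Gadd45b, a stress sensor gene, rose at R1 by 0.47 ± 0.08 (SE, adjusted p = 0.00119). Bcl2l1, which encodes the anti-apoptotic protein Bcl-xL, rose at R1 by 0.24 ± 0.07 (adjusted p = 0.0473), and Traf1 was -0.25 without passing.

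The list with most calls held the relatives of tristetraprolin and of the early response genes, with 3 of 8 higher at H1, 2 at H3 and 1 at R1, against 0.0977%, 1.2% and 1.65% of all probe sets. The lists were chosen with earlier results of these data known, so the place of this list among them is a description, not a test. Dusp1, a phosphatase that inactivates MAP kinases, rose by 1.02 ± 0.19 (SE) at H1 (limma adjusted p = 0.0219) and by 0.72 ± 0.19 at H3 (adjusted p = 0.0348). Ier2, another immediate early gene, rose by 0.89 ± 0.12 at H1 (adjusted p = 0.000612), and Btg2, an antiproliferative early gene, by 0.72 ± 0.11 (adjusted p = 0.0031). Ppp1r15a, which encodes GADD34, a regulator of the stress-induced block of translation, rose by 0.36 at H3 (adjusted p = 0.0223) and 0.38 at R1 (adjusted p = 0.0112). Zfp36l1, a paralog of Zfp36, was 0.28 at H1 (adjusted p = 0.239).

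Among 61 markers of microglia, endothelium, astrocytes, oligodendrocytes, neurons, choroid plexus, meninges and blood cells, limma called 1 at H3, 1 at R1 and 0 at H1, where the unadjusted p was under 0.05 for 3. At H1 3365 of all 45037 probe sets had such a p, and 1.2% and 1.65% were called higher at H3 and R1. The marker called at H3 and R1 was Opalin, an oligodendrocyte gene, with a log2 change of 0.44 (limma adjusted p = 0.0445) and 0.56 (adjusted p = 0.00644). The other 6 oligodendrocyte markers did not pass, with changes of -0.03 (Cldn11) to 0.08 (Mag) at H3. The summed intensity of the 7 oligodendrocyte markers ran from 8236 to 15936 in controls, from 8829 to 16131 at H3 and from 8768 to 16146 at R1, and their part in the results of the members was not tested. The median change of the 9 microglial markers was 0.03, 0.03 and -0.01 at H1, H3 and R1, then -0.06 at R3 and -0.18 at R6. One of them, Tmem119, fell by 0.40 at R3 (limma adjusted p = 0.000918) and by 0.32 at R6 (adjusted p = 0.0337) on the log2 scale. Of all probe sets, 0.782% and 0.0422% were called at these times. The summed intensity of the 9 microglial markers ran from 983 to 3359 in controls, from 897 to 3229 at R3 and from 872 to 2972 at R6. Their part in the Nfkbia values at R3 and R6 was not tested. Region markers placed every array in its labelled region, since the summed level of each of the 7 region lists was higher in all arrays of its own region than in any other array.

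Genes whose course was most like that of the called members were found by correlating the 49 changes by region and time point, among 52 genes called in at least 5 of them. For Nfkbia these were Sgk1, a kinase gene induced by glucocorticoids (r = 0.96), Ddit4, an mTOR inhibitor gene induced by hypoxia and glucocorticoids (r = 0.90), and Errfi1, a feedback inhibitor gene of the EGF receptor (r = 0.89). For Ier3 they were H3f3b, a histone H3.3 gene (r = 0.87), Ccn1, an early matrix-protein gene (r = 0.86), and Zfp36 (r = 0.85). For Zfp36 they were Ier3 (r = 0.85), Ccn1 (r = 0.81) and H3f3b (r = 0.79). Nfkbia was less like Ier3 (r = 0.49) and Zfp36 (r = 0.62). The 49 points of a gene share the control arrays of each region, and the candidates were chosen by their calls, so these values are descriptions only.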

How the data were processed

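The authors deposited 1 linear signal intensity per probe set and array for the Mouse Genome 430 2.0 array, with a trimmed mean of 125 on every array; the submitters' processing notes name GCOS 1.3. The GCRMA normalization and division by the sham mean that the methods describe are not visible in the values, and what made these values is not given in the sources used here. Here 16 was added, which compresses changes of dim genes, and log2 was taken of the deposited intensities. The 64 control probe sets were left out, and 23.3% to 30.2% of the values of an array lay below 16. The number of arrays, 3 per group, limits the precision.

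The 24 arrays of a region were fitted by themselves, with 8 group means and no covariate. The tools were limma 3.58.1 and R 4.3.3. The 7-region average takes a replicate number as 1 mouse, which the labels do not state. Intervals are 95% intervals of that fit. Differences between regions were tested over all arrays, with a random block for each combination of time point and replicate number (correlation 0.0365), and control levels with a block for the replicate number (0.0383). A call is a Benjamini-Hochberg adjusted p under 0.05 over 45037 probe sets. Genes were named from the platform annotation, with 1 symbol for 34945 probe sets, several for 932 and none for 9160. All members were named, and in each other list up to 4 genes with the largest called changes and the most changed gene without a call. For members with 5 or more calls the 3 most similar genes were named. Members and lists were chosen with earlier results of these data known. The fits were tested on simulated data. Alternatives were other pseudocounts, normalizations, filters, fits and probe sets, the methods' t-test, a replicate block and leaving out replicates.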

Additional observations from a re-analysis of the deposited data

Results flagged for a closer look

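Over the 7 later time points there were 7 instances, in 4 genes, in which the 3 arrays of a region lay above all 3 controls while those of another region lay below them. At H3 the log2 change of Nfkbiz was 0.19 in thalamus and -0.22 in hippocampus, and at R1 that of Zfp36 was 0.39 in hippocampus and -0.16 in striatum. At R3 Zfp36 was 0.22 in hippocampus and -0.26 in cerebellum, at R12 0.22 and -0.27 in the same regions, and at R24 0.15 in hippocampus and -0.29 in striatum. At R6 Ier3 was 0.30 in midbrain and -0.10 in striatum, and at R12 Nfkb2 was 0.21 in cerebellum and -0.51 in striatum. None of these changes passed within its region by limma. The difference between the particular regions was not tested in any instance. Of all probe set and region pairs, 4.98%, 5.46%, 5.98% and 4.53% lay above all 3 controls at H1, H3, R1 and R6. How often other genes show both directions is not given here, and the instances of 1 gene in 1 region share the same controls. The 7 instances are therefore not read as a result about the members. The F-test over all 7 regions had an unadjusted p of 0.252 for Nfkbiz at H3 and 0.135 for Zfp36 at R1, with limma adjusted p of 1.00 and 0.885.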

How the results depend on the processing

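In the average of the 7 regions, the calls of Ier3 and Zfp36 at H1 and H3, of Nfkbia at H3 and R1, and of the falls of Ier3 and Zfp36 from H3 to R1 were kept when each replicate of controls, H1, H3 and R1, with its 7 region arrays, was left out. When a replicate number was left out at all time points, the Nfkbia call at R1 was lost without number 1 and without number 2. The Zfp36 fall was lost without number 3 (limma adjusted p = 0.0583). No called change reversed under any alternative. Of the 79 changes that did not pass, 13 of 1860 recomputed values passed.

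A plain 2-group t-test, after Benjamini-Hochberg adjustment, called 0 members in the average at H1, H3 and R1 in place of 2, 3 and 1. Within regions it called 0 pairs in place of 10, 18 and 2. This was not the authors' procedure, which put that adjustment on a one-way ANOVA in each region before a Student's post hoc test. At an unadjusted p under 0.05 the 2-group t-test gave 3, 3 and 4 of 9 members, where 5.44%, 10.4% and 13.7% of all probe sets passed. It gave 14, 24 and 13 of 63 pairs, where 4.42%, 6.28% and 8% passed. With all arrays and a random block, the average gave 3 calls at H1 (Nfkbia added), 3 at R1 (Nfkbiz and Tnfaip3 added) and 1 each at R6, R12 and R24. That fit counted the arrays of a replicate number almost as separate replicates, so its added calls carry less weight. At R6, where 0 members were called, probe sets brighter than the median, trend and robust options, and the replicate block each gave 1, which was Nfkbia. At R1 within regions the 2 calls became 0 with the F-test rule at 1.5-fold, 1 with pseudocount 1 or quantile normalization, 4 with pseudocount 32, and 5 with brighter probe sets or with trend and robust options.

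Leaving out replicates gave, in the average, 2 to 2 calls at H1, 3 to 3 at H3, 0 to 2 at R1 and 0 to 1 at R6. It gave 0 to 1 for H3 against H1, 1 to 2 for R1 against H3 and 0 to 2 for R3 against R1. Within regions it gave 1 to 11 at H1, 2 to 19 at H3 and 0 to 4 at R1. Without control replicate 2 there were 11 calls at H3 within regions, and without H3 replicate 3 there were 10. Leaving out a whole replicate number, with 2 arrays per group, gave 2 to 4 at H3. Without control replicate 2, R1 replicate 2 or R1 replicate 3, R1 within regions gave 0, and without control replicate 1 it gave 1.

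The labels do not say that replicate numbers pair the arrays, and some pairs with the same number correlated below 0. Deviations of arrays with the same number and time point in different regions had a median correlation of 0.043 (-0.137 to 0.227), and -0.023 with different numbers. In the same region at different time points the median was 0.083 (-0.129 to 0.268) with the same number and -0.041 with different numbers, so the same number went with a higher correlation, but not in every pair. With the replicate block, R1 within regions gave 4 calls and R6 in the average gave 1 (Nfkbia adjusted p = 0.0373), and other counts stayed within 1.5 times. Signals near or below 16, as for Bcl3, Relb and the second probe sets, limit what can be detected.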
